A study of Mus musculus with 109 samples.

Results

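Glutamate receptor genes were followed in all single cells of the series, prepared from postnatal day 7 mouse cerebella. The 9 genes named were the NMDA receptor subunits Grin1, Grin2a and Grin2b, the AMPA receptor subunits Gria1, Gria2 and Gria4, the kainate receptor subunit Grik2 and the metabotropic receptors Grm4 and Grm5. They were taken by symbol from the count table of 15973 genes, which held 8 of them, and Grin2a was not analysed here. All cells came from C57BL/6 brain and carry the label of granule precursor cells, and the labels name no genotype or treatment that differs between them. The methods of the study name ICR pups and give no strain for the sequenced cells. The cells were enriched on a Percoll density gradient and captured on C1 Fluidigm chips, so the sample can hold other cell types of similar density. The labels separate 6 library groups of 18 to 19 cells. No label ties a library group to an animal or a culture, so the p-values below measure only the spread between library groups, which may be technical.

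Glutamate is the main excitatory transmitter of the brain. Ionotropic receptors are tetrameric cation channels, and NMDA, AMPA and kainate receptors are each built from their own set of subunits, whereas metabotropic receptors are G protein-coupled. Granule cells receive glutamate from mossy fibers, and their progenitors divide in the external granule layer before they leave the cell cycle, migrate inward and form these synapses. Mki67 encodes a nuclear protein of cycling cells, and Rbfox3 encodes the neuronal nuclear antigen NeuN.

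Levels are given as CPM, which is the count of a gene divided by all counts of the cell and scaled to 1000000. Totals ran from 15071 to 8616017 counts per cell, with a median of 3604792, and 2771 to 13533 genes had a count in a cell. Neurod1, a transcription factor of the granule lineage, had a count in every cell and Pax6 in 97.2% of cells, whereas Atoh1, which marks granule cell progenitors, had one in 18 cells. Genes of other cell types were also found. By limits chosen after the values were seen, 6 cells carried astroglial genes, 9 carried GABAergic interneuron genes and 6 carried oligodendrocyte lineage genes. Together these were 18 cells, and results that rest on them are given with and without them. The 2 cells with most detected genes were among the 6 astroglial ones. No doublet caller was run.

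The 8 genes fell into 2 sets by how widely they were found. Gria2, Grik2, Gria4 and Grin2b had a count in 95.4%, 89%, 76.1% and 75.2% of all cells. Grin1, Grm4, Gria1 and Grm5 had one in 17, 14, 12 and 4 cells. Because 1 count in a deep library is far below 1 CPM, a level of 10 CPM was used as a second limit. At that limit Gria2 was found in 78 cells, Grik2 in 58, Grin2b in 41 and Gria4 in 40, and the other 4 genes were found in 2 to 8 cells. Among all listed genes, 97.8% were found in fewer cells than Gria2 and 7.26% in fewer cells than Grm5.

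Levels between genes were compared per kilobase of exon. Mean CPM per kb over the 6 library groups was 36.4 ± 23.5 (SD) for Grik2, 33.7 ± 16.5 for Gria2, 18.7 ± 6.64 for Gria4 and 5.12 ± 2.14 for Grin2b. It was 2.69 ± 4.42 for Grm4, 1.18 ± 2.31 for Gria1, 0.703 ± 0.85 for Grin1 and 0.0781 ± 0.176 for Grm5. Gria2 was above Gria4, Gria4 above Grin2b, and Grin1 above Grm5 in 6 of 6 library groups. Grik2 was above Gria2 in 4 of 6, Grin2b above Grm4 in 4 of 6, Grm4 above Gria1 in 2 of 6 and Gria1 above Grin1 in 3 of 6. The ranges of library groups overlapped for each pair of neighbours in this order.

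**Figure D1:**
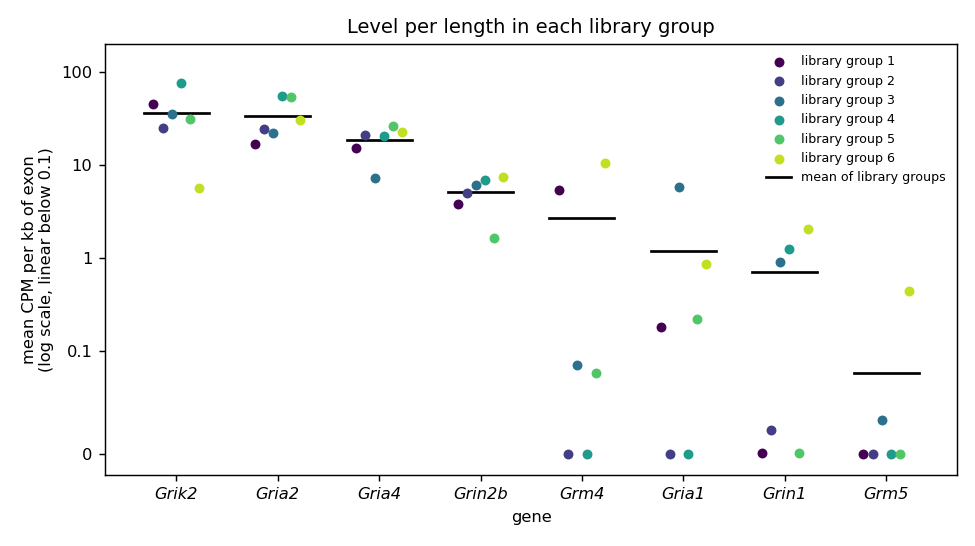
Mean level of each gene in CPM per kb of exon (y axis, log scale that is linear below 0.1) in each of 6 library groups (colored points), with the mean of the library groups as a black line. Grik2, Gria2, Gria4 and Grin2b lie above 1 in every library group, whereas Grm4, Gria1, Grin1 and Grm5 spread from at or near 0 to their highest library group.

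The NMDA receptor is a tetramer that needs the subunit encoded by Grin1, and Grin2b encodes the glutamate-binding subunit that prevails in the young brain. Grin2b lies on mouse chromosome 6 (GRCm38, 135713233 to 136173511, minus strand). It reached 1564 CPM in its highest cell and averaged 127 CPM over all cells. Its mean CPM in the library groups was 94.1, 124, 151, 169, 40.5 and 184, which is a 4.54-fold range.

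Grin1 lies on chromosome 2 (25291181 to 25319187, minus strand) and averaged 6.76 CPM. Nearly all of this signal came from few cells, since 96.3% of its summed CPM lay in 3 cells at 345, 215 and 149 CPM. These were from library groups 6, 4 and 3, the second of them carried GABAergic genes and the third carried oligodendrocyte lineage genes. In the annotation 13.5% of the exon bases of Grin1 are shared with the antisense gene Grin1os. The strand setting of the counting is not given in the sources used here, so reads of the 2 genes over these shared bases cannot be told apart.

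Grin1 was sparse in cells with and without Grin2b. Of the 41 cells with Grin2b at 10 CPM or more, 11 had a Grin1 count and 2 had Grin1 at 10 CPM or more. Of the other 68 cells, 6 had a Grin1 count and 2 had it at 10 CPM or more. The 41 cells had at least 1275466 counts each, and 3 counts, the number that a count of 0 allows, correspond to 0.38 to 2.35 CPM in them.

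AMPA receptors carry most fast excitatory transmission, and the subunit encoded by Gria2 makes them nearly impermeable to calcium once its transcript is edited. Gria2 lies on chromosome 3 (80681450 to 80802835, minus strand), averaged 521 CPM and reached 6516 CPM. In the library groups its mean was 258, 382, 343, 855, 828 and 473 CPM. Gria4 lies on chromosome 9 (4417896 to 4796234, minus strand), averaged 118 CPM and reached 1829 CPM. Gria4 was in most cases found beside Gria2, which was at 10 CPM or more in 37 of the 40 cells with Gria4 at that level and in 41 of the other 69 cells. Gria1 lies on chromosome 11 (57011387 to 57330244, plus strand) and averaged 7.10 CPM, of which 3 cells held 73%.

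Kainate receptors are both ion channels and modulators of release, and Grik2 encodes one of their low-affinity subunits. Grik2 lies on chromosome 10 (49094833 to 49788766, minus strand), averaged 483 CPM and reached 4720 CPM. It varied more between library groups than the AMPA receptor subunit Gria2, with means of 601, 333, 464, 1008, 413 and 75.4 CPM, a 13.4-fold range against a 3.31-fold range. Library group 6 was the lowest for Grik2 and the highest for Grin2b. Of the 41 cells with Grin2b at 10 CPM or more, 30 had Grik2 at that level, against 28 of the other 68.

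Grm4 encodes a presynaptic receptor of the granule cell axon that inhibits adenylate cyclase, and Grm5 a receptor coupled to phospholipase C. Grm4 lies on chromosome 17 (27422387 to 27521403, minus strand). It had a count in 14 cells, but 2 cells at 1132 and 604 CPM in library groups 6 and 1 were the ones above 10 CPM, and 3 cells held 98.8% of its CPM. Of the 12 cells with a lower level, 10 came from the same 2 library groups. The first of these 2 cells was high in Mki67, at 132 CPM, and the second was at 0.269 CPM of Mki67 with Rbfox3 at 209 CPM. Grm5 lies on chromosome 7 (87584168 to 88134907, plus strand) and was found in 4 cells at 62.3, 18.1, 5.80 and 0.234 CPM.

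The first comparison asked whether cells high in the cycling gene Mki67 differ in these receptors from cells low in it. Cells with Mki67 at 100 CPM or more (Mki67-high, 32 cells) were set against cells with Mki67 below 10 CPM (Mki67-low, 75 cells), and 2 cells lay between. Each library group held 3 to 8 Mki67-high and 10 to 15 Mki67-low cells. For each gene the mean log2(CPM + 1) over cells was taken per class and library group, and the 6 differences were tested by an exact two-sided sign-flip permutation test, whose smallest possible p is 0.03125. Raw counts summed per class and library group were also compared by the quasi-likelihood test of edgeR, with genes called at an adjusted p below 0.01.

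Grin2b was lower in Mki67-high cells in 6 of 6 library groups. The 32 Mki67-high cells ranged from 0 to 420 CPM with a median of 0.271, and the 75 Mki67-low cells ranged from 0 to 1564 CPM with a median of 8.69. At least 10 CPM was reached in 4 of 32 Mki67-high cells (12.5%, Wilson 95% interval 4.97 to 28.1%) and in 36 of 75 Mki67-low cells (48%, 37.1 to 59.1%). Both classes held cells at 0, so the cells overlap, whereas the class means did not cross within any library group.

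Mean log2(CPM + 1) of Grin2b in library groups 1 to 6 was 0.28, 2.66, 1.15, 0.23, 1.54 and 1.16 in Mki67-high cells. In Mki67-low cells it was 4.24, 4.68, 5.07, 3.26, 2.5 and 4.29. The mean difference was -2.84 ± 1.16 (SD, n = 6), and the exact sign-flip test gave its smallest p of 0.03125, which did not pass adjustment over all genes (0.564). The median difference over all genes was 0.16. In the sums, the log2 fold change was -2.81 (SE 1.37), and edgeR did not call it (adjusted p = 0.677).

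**Figure D2:**
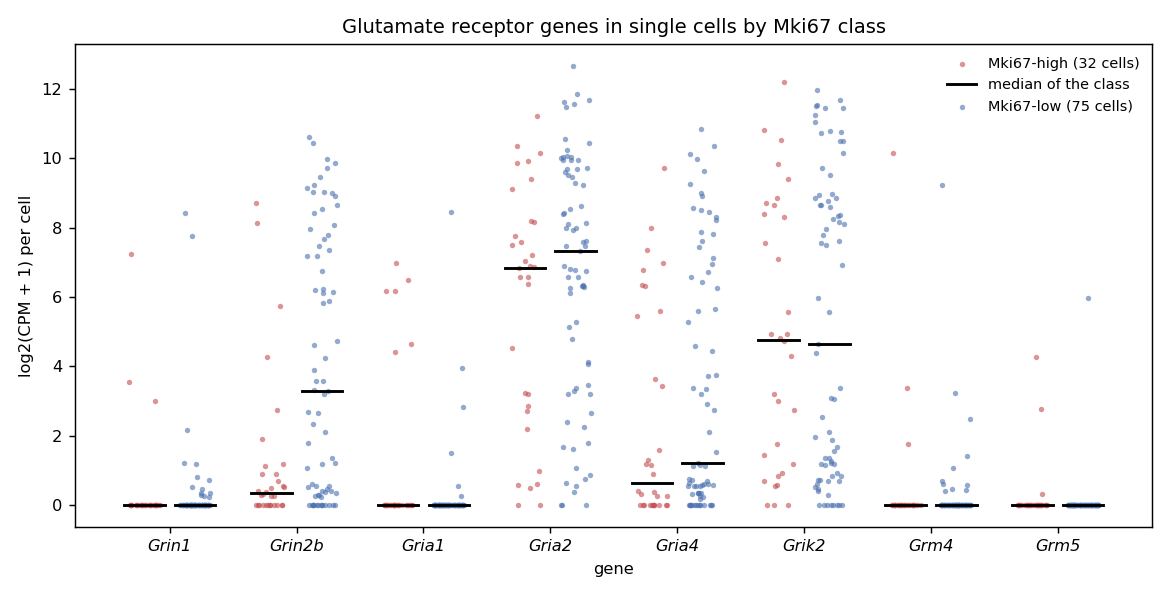
Level of each gene in log2(CPM + 1) (y axis) in each of 32 Mki67-high cells (red) and 75 Mki67-low cells (blue), with the median of each class as a black line. For Grin2b the red points lie mostly near 0 with a median CPM of 0.271, whereas the blue points spread up to 1564 CPM.

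How often a gene differs this way among all genes bears on this count. Of 15972 genes, 121 (0.758%) were lower in Mki67-high cells in every library group and 764 (4.78%) were higher in every library group. Among the 1341 genes found in at least as many cells as Grin2b, 41 (3.06%) were lower in every library group. Of the 8 receptor genes, Grin2b was lower in every library group and none was higher. edgeR called 2 of 9084 genes (0.022%), Cdc20 and Tacc3, both of mitosis, and 0 of the 4 receptor genes that passed its filter, of which 0 had an unadjusted p below 0.05. DESeq2 called 171 genes and none of the 4, although its unadjusted p for Grin2b was 0.0431 (adjusted 0.292).

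The difference of Grin2b was as large without the cells that carried genes of other types. It was -3.37 without the GABAergic cells and -3.76 without all 18 cells, and lower in 6 of 6 library groups in both cases. Among the 91 remaining cells, Grin2b was at 10 CPM or more in 2 of 27 Mki67-high and 35 of 62 Mki67-low cells. Mki67-high cells had more detected genes, with a median of 4968 against 4193, and higher totals, with a median of 4157698 against 3580460 counts. With every cell thinned to 1110182 counts the difference was -2.91, and Grin2b was at 10 CPM or more in 4 of 32 against 37 of 75 cells. The sum of Grin2b in the Mki67-high class rested on few cells, and leaving out library group 2 moved the log2 fold change of the sums from -2.81 to -4.66.

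None of the other 3 widely found genes had the same direction in every library group. The mean difference was -0.85 ± 1.31 for Gria2, which was lower in 4 of 6 library groups, and -1.36 ± 2.18 for Gria4, also lower in 4 of 6. Grik2 was higher in 4 of 6 library groups, with a mean difference of -0.23 ± 2.02, and the direction of that mean depended on library groups 1 and 5. It was 0.16 without library group 1 and 0.38 without library group 5. Exact sign-flip p-values were 0.219, 0.219 and 0.812 for Gria2, Gria4 and Grik2. In the sums their log2 fold changes were -0.89 (SE 0.68), -0.90 (SE 1.36) and -0.77 (SE 0.71), with adjusted p from 0.804 to 0.913 by edgeR.

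At 10 CPM or more, Gria2 was found in 21 of 32 Mki67-high and 55 of 75 Mki67-low cells. Gria4 was found in 10 and 30 of these cells and Grik2 in 18 and 39. Grik2 was therefore at this level in 56.2% of Mki67-high cells (interval 39.3 to 71.8%) and 52% of Mki67-low cells (40.9 to 62.9%). Without the 18 cells of other types Grik2 was at 10 CPM or more in 14 of 27 and 38 of 62 cells. Its mean difference was then -1.25, lower in 4 of 6 library groups (exact sign-flip p = 0.188). Without these cells Gria2 (-1.06, exact p = 0.0938) and Gria4 (-1.31, exact p = 0.188) were each lower in 5 of 6.

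The 4 sparse genes were below the filter of edgeR. Grin1 had a count in 3 of 32 Mki67-high and 14 of 75 Mki67-low cells. With thinned counts these were 3 of 32 and 8 of 75 cells, and at 10 CPM or more 2 of 32 and 2 of 75. Its mean difference was 0.03 ± 0.63, with lower values in 5 of 6 library groups. Library group 3 alone was higher, at 1.25, and without it the mean was -0.22. The 18 cells of other types also bear on Grin1. Without them it had a count in 0 of 27 Mki67-high and 11 of 62 Mki67-low cells, 1 of them at 10 CPM or more. The mean was then -0.22, and 6 of 6 library groups were lower. With no count in the Mki67-high cells no library group could be higher, so this count of library groups cannot show a direction. Gria1 was at 10 CPM or more in 6 of 32 Mki67-high cells and 2 of 75 Mki67-low cells, with a mean difference of 0.61 ± 0.96. Of these 8 cells, 4 were astroglial, and without the cells of other types the counts were 2 of 27 and 0 of 62 (Wilson interval up to 5.83%). The part of these cells in the difference was not tested further. Mean differences were 0.21 ± 1 for Grm4 and 0.13 ± 0.20 for Grm5.

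The second comparison asked whether the receptors differ with the level of the neuronal gene Rbfox3 among Mki67-low cells. Of the 75 Mki67-low cells, 32 had Rbfox3 at 100 CPM or more (Rbfox3-high), 31 had it below 10 CPM (Rbfox3-low) and 12 lay between. Median totals were 3296195 and 3786777 counts in the Rbfox3-high and Rbfox3-low cells, and medians of detected genes were 4126 and 4312. These 2 comparisons share the Mki67-low cells, not all of which are shown to be outside the cell cycle. Summed CPM of 7 cycling genes (Mki67, Top2a, Ccnb1, Cdk1, Pcna, Mcm2 and Mcm5) was 50 or more in 29 of the 75 cells. It was so in 13 of 32 Rbfox3-high and 14 of 31 Rbfox3-low cells. Mean Top2a was 28.3 CPM in Rbfox3-high and 383 CPM in Rbfox3-low cells. The part of cycling in the differences by Rbfox3 was not tested.

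Grin2b was higher in Rbfox3-high cells in 6 of 6 library groups, but not without the GABAergic cells or with log2(CPM + 10). Rbfox3-high cells ranged from 0 to 1388 CPM with a median of 63.1, and Rbfox3-low cells ranged from 0 to 1564 CPM with a median of 0.518. The level of 10 CPM was reached in 19 of 32 Rbfox3-high cells (59.4%, interval 42.3 to 74.5%), in 8 of the 12 between and in 9 of 31 Rbfox3-low cells (29%, 16.1 to 46.6%). Cells of both classes spread over the same range, and the highest cell was Rbfox3-low.

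In library groups 1 to 6 the differences of Grin2b were 0.48, 1.47, 3.27, 1.42, 2.55 and 4.38. Their mean was 2.26 ± 1.42, with an exact sign-flip p of 0.03125, the smallest possible, and 1 after adjustment over all genes. In the sums the log2 fold change was 0.92 (SE 1.19), with an adjusted p of 0.997 by edgeR. Of 15971 genes, 122 (0.764%) were higher in Rbfox3-high cells in every library group and 125 (0.783%) were lower. Among 1340 genes found at least as widely as Grin2b, 36 (2.69%) were higher in every library group.

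Of the 9 cells with GABAergic genes, 7 were Rbfox3-low, 1 was Rbfox3-high and 1 lay between. Of all 18 cells of other types, 11 were Rbfox3-low and 1 was Rbfox3-high. Summed levels of the 10 astroglial genes had medians of 133 CPM in Rbfox3-high and 755 CPM in Rbfox3-low cells. Gad1, which makes GABA, and Pax2, a transcription factor of GABAergic interneuron precursors, were lower in Rbfox3-high cells in 6 of 6 library groups, by mean differences of -1.93 and -1.79. None of the 9 cells reached 10 CPM of Grin2b, whose highest value in them was 5.31 CPM, or of Grik2, whose highest was 1.55 CPM. With 9 cells, the Wilson interval of 0 reaches up to 29.9%. Without them, Grin2b was higher in 4 of 6 library groups, by 1.77 on average (exact sign-flip p = 0.188). Without all 18 cells of other types the mean difference was 0.89 (exact p = 0.594), with 19 of 31 Rbfox3-high and 8 of 20 Rbfox3-low cells at 10 CPM or more, and the log2 fold change of the sums turned to -0.41. With log2(CPM + 10) and all cells of the 2 classes kept, Grin2b was higher in 5 of 6 library groups, by 1.45.

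Grik2 was higher in Rbfox3-high cells in 5 of 6 library groups, by 2.31 ± 2.33 (exact sign-flip p = 0.0625). It was at 10 CPM or more in 20 of 32 Rbfox3-high cells (62.5%), 10 of the 12 between and 9 of 31 Rbfox3-low cells (29%). The mean difference was 1.84 without the GABAergic cells and 1.08 without all cells of other types. In the sums the log2 fold change was 0.44 (SE 0.95, edgeR adjusted p = 0.997), and it turned to -0.24 without all cells of other types. Among Mki67-high cells Grik2 was at 10 CPM or more in 6 of 13 cells with Rbfox3 below 10 CPM, 4 of 9 cells between and 8 of 10 cells with Rbfox3 at 100 CPM or more. Grin2b was so in 1, 1 and 2 of the same cells.

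**Figure D3:**
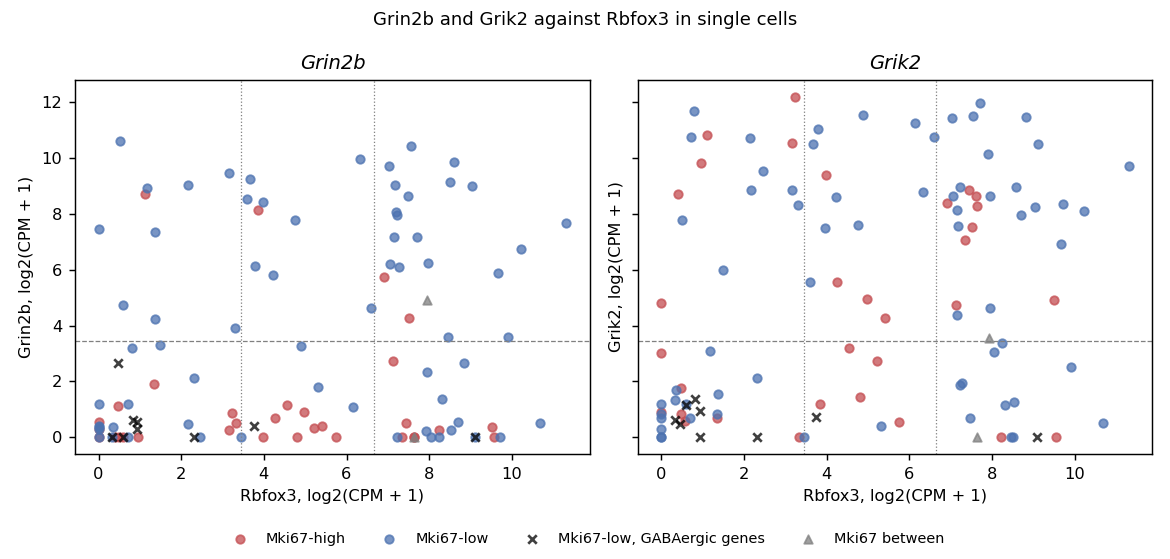
Level of Grin2b (left) and Grik2 (right) against Rbfox3, both in log2(CPM + 1), in every cell by Mki67 class, with the 9 cells that carry GABAergic genes as crosses. Dotted lines mark 10 and 100 CPM of Rbfox3 and the dashed line 10 CPM of the receptor gene, and all 9 crosses lie below the dashed line in both panels.

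Gria2 and Gria4 did not separate by Rbfox3. The mean difference was 0.52 ± 1.83 for Gria2 and 0.36 ± 2.60 for Gria4, each higher in 3 of 6 library groups. Gria2 was at 10 CPM or more in 24 of 32 Rbfox3-high and 21 of 31 Rbfox3-low cells, and Gria4 in 14 and 11. In the GABAergic cells, in which Grin2b and Grik2 stayed below 10 CPM, Gria2 reached 3027 CPM and Gria4 reached 1009 CPM. Without the GABAergic cells the difference of Gria4 was -0.74, and it was higher in 2 of 6 library groups.

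The sparse genes gave differences of 0.34 ± 1 for Grin1, -0.39 ± 0.60 for Gria1, 0.27 ± 0.68 for Grm4 and -0.12 ± 0.31 for Grm5. Grm5 had no count in the 32 Rbfox3-high cells (Wilson interval up to 10.7%) and 1 cell with a count among the 31 Rbfox3-low cells. edgeR called 0 of 5907 genes (0%) in this comparison, although 263 had an unadjusted p below 0.05, none of them among the 4 receptor genes tested. DESeq2 called 66 genes and none of the 4.

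**Figure D4:**
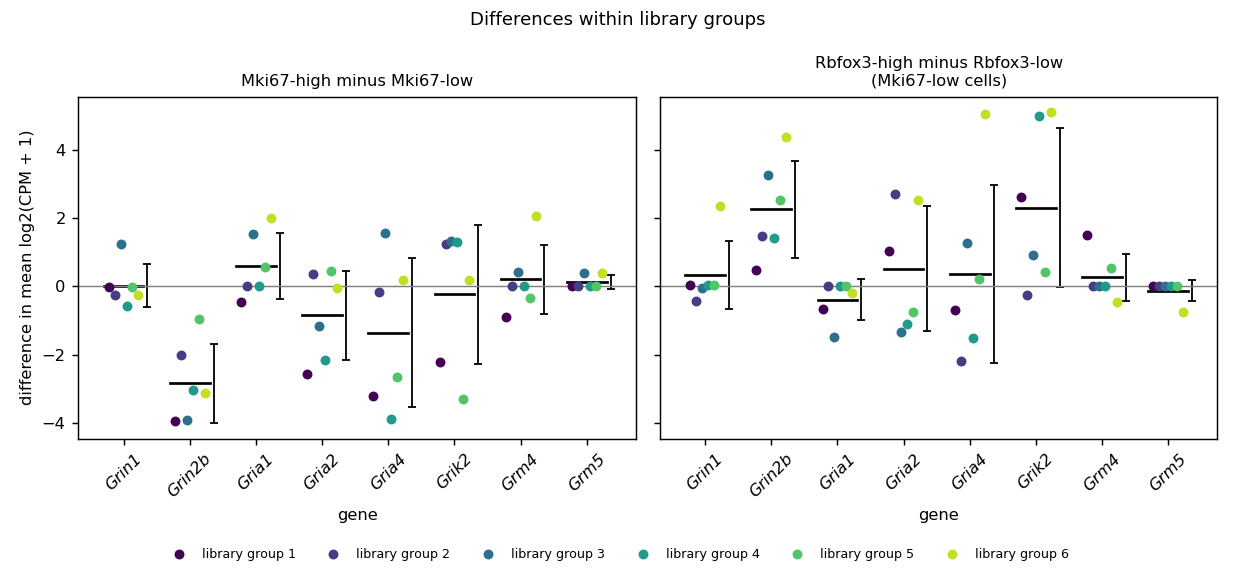
Difference in mean log2(CPM + 1) (y axis) of each gene within each of 6 library groups (colored points), Mki67-high minus Mki67-low cells (left) and Rbfox3-high minus Rbfox3-low cells (right), with the mean as a black line and the SD as the error bar beside it. All 6 points of Grin2b lie below 0 on the left and above 0 on the right, and points of Gria2, Gria4 and Grik2 lie on both sides of 0 in both panels.

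Gria1 and Grm5 were found in part in cells with astroglial genes. Gria1 was at 10 CPM or more in 4 of the 6 astroglial cells and in 4 of all other cells, and its highest cell, at 349 CPM, was one of the 6. Of the 4 cells with a Grm5 count, 3 were astroglial, and so were both cells at 10 CPM or more. The astroglial cells with Grm5 at 18.1 and 5.80 CPM were those with most detected genes in the series, 12684 and 13533. Both also held Rbfox3, at 182 and 120 CPM, and Gria1, at 20.1 and 126 CPM. Whether these were single cells was not tested. Astroglial cells lay in library groups 3, 5 and 6, and 3 of them were Mki67-high. The 6 oligodendrocyte lineage cells, some of which are also astroglial, held Gria1 at 10 CPM or more in 4 cells and Gria4 in 4 cells.

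Cells differed in how many of the 4 widely found genes they held. At 10 CPM or more, 17 cells had none of Gria2, Grik2, Grin2b and Gria4, 25 had 1, 22 had 2, 32 had 3 and 13 had all 4. All 4 were held by 2 of 32 Mki67-high and 11 of 75 Mki67-low cells. Among the Mki67-low cells, 6 of 32 Rbfox3-high and 2 of 31 Rbfox3-low cells held all 4.

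Rank correlations of CPM over all cells are given as a description, and cells of a library group share its preparation and depth. With Mki67 the Spearman coefficient was -0.38 for Grin2b and between -0.15 and 0.15 for the other 7 genes. With Rbfox3 it was 0.21 for Grik2, 0.17 for Gria4, 0.14 for Grin2b and at most 0.098 for the others. Grin2b and Grik2 had a coefficient of 0.32, Grin2b and Gria2 of 0.26, and Gria2 and Gria4 of 0.21.

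Among 8641 genes found in at least 20 cells, those most like Grin2b in rank over all cells were Hivep3 (0.49), Ndst3 (0.48) and L1cam (0.48), the last a neural cell adhesion molecule. For Grik2 they were Cntn2 (0.46), Gap43 (0.45) and Pax6 (0.45), of which Cntn2 is an axonal adhesion molecule and Gap43 a growth cone protein. Hadhb, A230046K03Rik and Krit1 were most like Gria4, with coefficients of at most 0.38. All are descriptions over the same cells.

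Other genes of glutamate signaling were taken from 6 lists of 61 genes, of which 52 were in the table. edgeR called 0 of the 35 that passed its filter in the Mki67 comparison and 0 of 24 in the Rbfox3 comparison, with 1 gene below an unadjusted p of 0.05 in each, and DESeq2 called none. Over all genes tested by edgeR, 666 of 9084 and 263 of 5907 had an unadjusted p below 0.05. The list of other ionotropic subunits held 8 listed genes with a median difference of 0.12 in the Mki67 comparison, and that of other metabotropic receptors held 4 with a median of 0.19. These genes were sparse, each with a count in 3 to 32 cells. Medians were 0.19 for 12 auxiliary subunits, -0.07 for 16 scaffold and trafficking genes, -0.18 for 3 RNA editing enzymes and 0.47 for 9 genes of glutamate release, uptake and metabolism, of which Slc1a2 and Slc1a3 are also astroglial markers, beside 0.16 over all genes. In the Rbfox3 comparison the 6 medians were -0.05, -0.18, -0.04, 0.02, 0.68 and -0.24, in the same order, beside -0.01 over all genes.

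Across these 6 lists, 1 gene was lower in Mki67-high cells in every library group. It was Homer1, a postsynaptic scaffold that binds group I metabotropic receptors, with a mean difference of -0.73 ± 0.24 (exact sign-flip p = 0.03125, adjusted 0.564) and an adjusted p of 0.566 in the sums by edgeR. None was higher in every library group. In the Rbfox3 comparison Dlg2, a scaffold that anchors NMDA receptors, was higher in every library group, by 1.43 ± 1.79 (exact p = 0.03125, adjusted 1), and none was lower. Mean Dlg2 was 17.3 CPM in Rbfox3-high and 0.03 CPM in Rbfox3-low cells, and edgeR did not test it by Rbfox3. With so little Dlg2 in Rbfox3-low cells a library group could hardly be lower. Its count of library groups and its exact p can therefore not show a direction. Homer1 had a count in 39 cells and Dlg2 in 27. Over all genes, 0.758% were lower and 4.78% higher in Mki67-high cells in every library group. By Rbfox3, 0.764% were higher and 0.783% lower in every library group. Beside these shares, 1 of 52 listed genes in each comparison is given as a description only.

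Marker lists gave a reading of the classes themselves. Of the 6 cycling genes other than Mki67, 4 were higher in Mki67-high cells in every library group, among them Top2a by 5.77 ± 2.90. Of 6 genes of postmitotic granule neurons, 3 were lower in every library group, which were Dcx (-2.61 ± 1.54), Gap43 (-2.55 ± 1.43) and Tubb3 (-2.22 ± 1.54). Rbfox3 itself was lower in 4 of 6 library groups, by -0.72 ± 1.78, so that Mki67-high cells were not a class without Rbfox3. In the Rbfox3 comparison Gap43 was higher in every library group (3.89 ± 2.29), as was Neurod1 (2.09 ± 1.23), alone of the 8 granule lineage genes. Of the other postmitotic genes, Dcx and Sema6a were higher in 5 of 6 library groups and Tubb3 and Cntn2 in 4 of 6. Summed levels of the 6 postmitotic genes, Rbfox3 among them, had medians of 7885 CPM in Rbfox3-high and 6843 CPM in Rbfox3-low cells. Top2a, alone of the cycling genes, was lower in every library group (-1.80 ± 2.08). edgeR called 0 genes of these lists, although 3 cycling and 5 postmitotic genes had an unadjusted p below 0.05 in the Mki67 comparison, and DESeq2 called 3 and 1. Gad1 (-1.32 ± 0.31) and Pax2 (-0.82 ± 0.52) were lower in Mki67-high cells in every library group, and Foxp2, from the Purkinje cell list, was higher in 5 of 6 (2.26 ± 2.29), with a mean of 100.7 CPM against 0.936 CPM. These 3 genes had unadjusted p-values below 0.05 in edgeR, with adjusted p from 0.391 to 0.422, and DESeq2 called all 3. Their part in the differences of the receptor genes was not tested, beyond the values given without the GABAergic cells. Summed levels of 8 granule lineage genes had medians of 3335 CPM in Mki67-high and 4551 CPM in Mki67-low cells. Summed levels of the 10 astroglial genes ranged from 0.399 to 23466 CPM in Mki67-high cells and from 0.321 to 44407 CPM in Mki67-low cells, those of the 8 oligodendrocyte lineage genes reached 14031 and 7140 CPM, and those of the 5 GABAergic genes reached 109.4 and 9734 CPM. Summed Purkinje cell, microglial and vascular genes were at a median of 0 in both classes, with Purkinje cell genes up to 924 and 142 CPM. The unipolar brush cell gene Eomes also had a median of 0 in both, but reached 3919 and 2869 CPM. Eomes was at 50 CPM or more in 1 of 32 Mki67-high and 12 of 75 Mki67-low cells. It was lower in Mki67-high cells in 5 of 6 library groups (-1.08 ± 1.76). Cells were not set apart by Eomes, and its part in the differences of the receptor genes was not tested.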

How the data were processed

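Single-cell RNA-seq was used, of 1 cell per sample. Reads had been mapped by the authors with STAR 2.4.1d on mm10, HTSeq 0.6.1 had counted them per gene, and the deposited values are raw counts. The annotation and strand setting of the counting are not given in the sources used here. Each of the 15973 genes was found in 3 cells or more. The libraries carry no molecular identifiers, so Wilson intervals (95%) and the 3 counts that a count of 0 allows cover counting error only. No cell was removed.

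Counts were scaled to CPM, and library groups were read from the sample titles. Exon lengths and positions came from the GENCODE annotation of GRCm38. Counts were summed per class and library group and compared in R 4.3.3 with edgeR 4.0.16 (filterByExpr, TMM normalization, quasi-likelihood test, Benjamini-Hochberg adjustment over all genes tested, called at adjusted p below 0.01, the threshold of the study). Genes that define a class were left out. Mean log2(CPM + 1) was compared by exact sign-flip tests in Python 3.11.15. Both procedures were run on simulated data with known changes. The sign-flip test was run on normally distributed values, which lack the many zeros of these cells. Recovery by edgeR was required only at a spread below that of these data, and its outcome at a like spread is not reported here.

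The receptor genes and all gene lists were chosen with earlier results of these data known. Named genes were all members, those of the other lists called by edgeR or with the largest rise or fall among genes with the smallest sign-flip p, and the 3 genes most correlated with each member found in 20 cells or more, which are not reported here for Gria2. Marker genes named for the classes were chosen after their values were seen. Cells were taken as astroglial with 5 of 10 genes, GABAergic with 2 of 5 and of the oligodendrocyte lineage with 3 of 8 genes at 50 CPM or more. Alternatives were DESeq2 1.42.0, library totals, no filter, library group as a block, a threshold of 0.05, leaving out each library group, thinned counts, leaving out unusual cells or cells of other types, other class limits, and a pseudocount of 10. Leaving out GABAergic cells or all cells of other types was added after seeing the data.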

Additional observations from a re-analysis of the deposited data

Results flagged for a closer look

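Values of single library groups were compared with the other 5 by Dixon's test in 24 sets of 6. Where values are normally distributed, chance marks about 1 in 20. In 5 sets 1 library group stood apart. The difference of Grin1 between Mki67-high and Mki67-low cells was 1.25 in library group 3 and -0.56 to -0.02 in the others. The difference of Grin1 between Rbfox3-high and Rbfox3-low cells was 2.35 in library group 6 and -0.42 to 0.06 in the others. Mean Gria1 was 35.3 CPM in library group 3 and 0 to 5.17 CPM in the others. Mean Grm5 was 4.47 CPM in library group 6 and 0 to 0.335 CPM in the others. The difference of Grm5 by Rbfox3 was -0.75 in library group 6 and 0 in the others. All 5 concern genes with a count in 17 cells or fewer. For such genes, with many values at or near 0, that chance share does not hold. The 5 sets of 24 can therefore not be read as an excess.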

How the results depend on the processing

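The lower Grin2b in Mki67-high cells kept its direction in 6 of 6 library groups, or in 5 of 5 where 5 were left, under each alternative of the mean log2 difference (-5.22 to -1.67). The value of -5.22 came with no Mki67 count as the lower class. This left out the 57 of 75 Mki67-low cells with a Mki67 count, so 5 library groups remained, some with 1 cell of that class. The log2 fold change of the Grin2b sums was negative in all 17 alternatives (-5.25 to -2.20, adjusted p 0.292 to 0.860), and likewise for Gria2, Gria4 and Grik2. edgeR called 2 genes in that comparison, against 171 by DESeq2, 6 at a threshold of 0.05, 1 with thinned counts, without the 3 unusual cells, without astroglial cells or without cells of other types, 0 with no Mki67 count as the lower class, 0 with library group as a replicate block, and 0 to 1 with each library group left out. Genes lower in every library group numbered 220, 226 and 214 without the unusual, astroglial and other-type cells, 77 with no Mki67 count as the lower class, and 169 to 264 with a library group left out, which leaves 5 groups to share a direction. With each left out, 869 to 1339 were higher. In the Rbfox3 comparison DESeq2 called 66 genes. Genes higher in every library group numbered 207 to 251 and genes lower 193 to 279 with a library group left out, 943 and 1223 with no Rbfox3 count as the lower class, which left 3 library groups, 272 and 71 over all cells, and 34 were lower without cells of other types. The 3 unusual cells were in no Rbfox3 class.

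Among mean log2 differences of receptor genes by Mki67, 9 changed sign: Grik2 (0.16 and 0.38 without library groups 1 and 5, -0.55 to 0.38 over the library groups left out), Grin1 (-0.22 without library group 3, up to 0.14 without others, -0.13 without unusual, -0.15 without astroglial and -0.22 without other-type cells), Grm4 (-0.16 without library group 6, up to 0.43 without others) and Grm5 (-0.069 without unusual cells, -0.00076 with no Mki67 count as the lower class). Of 72 log2 fold changes of sums by Rbfox3, 12 did: Grin2b (-0.41) and Grik2 (-0.24) without cells of other types, Gria2 (0.17 with the replicate block, 0.58 without library group 5, 1.56 with no Rbfox3 count as the lower class) and Gria4 (-0.10, -0.03 and -0.82 without library groups 1, 3 and 6, up to 0.97 without others, -0.40 thinned, -0.04 over all cells, -0.28 without GABAergic and -0.16 without other-type cells). Of 112 mean log2 differences by Rbfox3, 6 did: Grin1 (-0.067) and Gria4 (-0.58) without library group 6 (up to 0.49 and 0.87 without others), Gria4 (-0.037 with no Rbfox3 count as the lower class, -0.74 and -0.32 without GABAergic and other-type cells) and Grm5 (0.073 over all cells). The causes were not tested.

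Classes of 1 library group did not deviate together (correlations from -0.0024 to 0.044 by Mki67 and -0.039 to 0.025 by Rbfox3), so library groups did not pair the sums. With the replicate block, edgeR called 0 genes by Mki67, and Grin2b was at -5.25 (SE 2.11, adjusted p = 0.641). Biological coefficients of variation of 172% and 186% between sums limit what these comparisons can call.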
